A study of Mus musculus with 78 samples.

Results

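The genes C1QA, C1QB, C1QC and CD68, whose RNA in tissue comes mainly from macrophages, were followed through every group of a mouse liver study. They were chosen by symbol and make up 4 of the 2755 genes counted. All 4 passed the authors' filter on low counts, which kept 2205 genes. Male B6C3F1 mice drank dichloroacetic acid (DCA), a by-product of water disinfection, at 3.5 g/L from the age of 4 weeks. Liver RNA was measured in fixed, paraffin-embedded sections by TempO-Seq, in which probe pairs joined on their target RNA are counted by sequencing, with 1 library per mouse. The study asked which changes persist after exposure ends, so the S1, S2 and S3 mice drank DCA for 10, 32 and 57 weeks and plain water afterwards. Direct mice drank DCA for all 78 weeks, and Control mice drank deionized water.

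Group names end with the study week of collection, counted from the start at 4 weeks of age. S1 was collected at weeks 10 (n = 6), 32 (n = 6), 57 (n = 6) and 78 (n = 6). S2 was collected at weeks 32 (n = 6) and 78 (n = 4), S3 at weeks 57 (n = 5) and 78 (n = 4), and Direct at week 78 (n = 3). Control mice were collected at weeks 10 (n = 4), 32 (n = 6), 57 (n = 6) and 78 (n = 6). Direct-78, S3-57, S2-32 and S1-10 mice were therefore still on DCA at collection, while S1-32, S1-57, S1-78, S2-78 and S3-78 had been on water for 22, 47, 68, 46 and 21 weeks. The 68 libraries held 541245 to 4285848 counts. Of the 12 hepatocyte markers tested to check the tissue, TTR, which encodes a plasma transport protein, was the most abundant at a mean of 24059 counts per 1000000 (CPM).

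C1q is the recognition molecule of the classical complement pathway, and it binds antibody complexes, dying cells and other surfaces before the proteases C1r and C1s are activated. Its A, B and C chains are encoded by separate genes and assemble into bundled collagen-like stalks with globular heads. Unlike most complement proteins of blood, which hepatocytes secrete, C1q is made largely by macrophages and dendritic cells, in liver by Kupffer cells among others. CD68 is a heavily glycosylated membrane protein of late endosomes and lysosomes, abundant in macrophages and used to stain them in tissue sections.

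The C1q genes lie side by side on the minus strand of chromosome 4 in GRCm38 (GENCODE vM21). C1QB spans chr4:136880129-136886187, C1QC spans chr4:136889804-136893065 and C1QA spans chr4:136895917-136898803, each annotated with 3 exons. The gaps between them are 3616 and 2851 bases, and the 3 genes together cover 18675 bases. CD68, with up to 6 exons, lies on the minus strand of chromosome 11 at chr11:69664213-69666153. The promoters are given because the genes moved together in the libraries, as RefSeq gives them on GRCm38.p6, each from 250 bases before to 50 bases after the start and written 5′ to 3′ on the minus strand. Entries for 3 of the 4 genes matched, C1QB at chr4:136886151-136886450, C1QC at chr4:136892865-136893164 and CD68 at chr11:69666121-69666420. Capitals mark matches on either strand to GAGGAA, the core letters of many sites of the myeloid factor PU.1, and to TGANTCA, the letters bound by AP-1.
C1QB: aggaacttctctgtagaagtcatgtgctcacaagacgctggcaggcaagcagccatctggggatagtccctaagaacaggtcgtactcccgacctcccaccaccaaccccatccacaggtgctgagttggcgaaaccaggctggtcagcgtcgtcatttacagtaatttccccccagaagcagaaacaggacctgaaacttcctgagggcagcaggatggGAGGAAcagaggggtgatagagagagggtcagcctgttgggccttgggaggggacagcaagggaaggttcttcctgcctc
C1QC: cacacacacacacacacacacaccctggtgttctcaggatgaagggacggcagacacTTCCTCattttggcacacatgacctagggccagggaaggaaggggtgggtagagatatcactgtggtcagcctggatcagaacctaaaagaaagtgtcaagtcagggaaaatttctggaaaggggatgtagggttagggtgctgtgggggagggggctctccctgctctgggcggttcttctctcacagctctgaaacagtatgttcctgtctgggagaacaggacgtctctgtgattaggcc
CD68: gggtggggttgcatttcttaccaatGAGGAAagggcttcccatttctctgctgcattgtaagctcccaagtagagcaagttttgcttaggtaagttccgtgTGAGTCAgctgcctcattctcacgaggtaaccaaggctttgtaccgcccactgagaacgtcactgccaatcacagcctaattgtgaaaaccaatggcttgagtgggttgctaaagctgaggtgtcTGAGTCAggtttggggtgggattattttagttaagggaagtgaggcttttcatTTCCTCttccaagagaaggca

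GAGGAA had 1 match in each C1q promoter shown, at position -30 from the start in C1QB and -193 in C1QC, and CD68 held 2 matches. TGANTCA had 2 matches in CD68 and was not found in the C1QB and C1QC windows. Of the 32851 promoters of the same length, 28.3% held GAGGAA and 7.81% held TGANTCA. The letters CACGTG (E-box, in 7.15% of promoters) and TATAAA (in 13.6%) were searched too and were not found in these windows. A match describes the letters and is no measurement of binding.

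Levels are given in CPM after scaling of the library totals by the trimmed mean of M-values (TMM). They are compared within a gene, since probes of different genes differ in yield. The most abundant gene of a list is the one with the highest mean CPM, which does not rank RNA amounts between genes. Over the 68 libraries the median level was 60.9 CPM for C1QA, 268 CPM for C1QB, 167 CPM for C1QC and 19.8 CPM for CD68. C1QA was at 0 in 2 libraries and CD68 in 6, while C1QB and C1QC were counted in every library. These are bulk measurements, so fewer macrophages and less of these RNAs per macrophage cannot be told apart.

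C1QA, the A chain, was highest in S1-32 at 122 ± 33.9 CPM (SD), followed by S1-10 (93.7 ± 10.1), S2-32 (88.3 ± 25.1), S1-78 (83.5 ± 53.3) and Control-10 (67.3 ± 40.7). The middle of the order held S2-78 (63.5 ± 45.1), Control-57 (57.7 ± 64.2), S3-57 (52.9 ± 48.8), S1-57 (50.0 ± 59.3) and S3-78 (48.6 ± 17.9). Control-32 (33.4 ± 18.5), Control-78 (32.6 ± 18.1) and Direct-78 (17.4 ± 15) were lowest. The spread within groups was itself uneven. In S1-57, mouse 28 had no C1QA counts and the highest library reached 128 CPM, and in S2-78 mouse 47 had none while the other 3 mice lay between 64.5 and 103 CPM.

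C1QB, the B chain, was highest in Control-57 at 450.4 ± 391 CPM, a mean carried by mouse 84 at 1182 CPM against a group median of 283. S1-32 (423 ± 60.1), S2-78 (352 ± 208), S1-78 (315 ± 146), S1-10 (304 ± 56.1), S3-78 (273 ± 145) and S3-57 (269 ± 217) followed. Below them came Control-10 (241 ± 73.5), S2-32 (241 ± 84.6), Control-78 (238 ± 85.1), S1-57 (217 ± 149), Control-32 (200.1 ± 107) and Direct-78 (108 ± 83.5). As for the A chain, the mice of S1-10 lay close together and those of week 57 were scattered.

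C1QC, the C chain, ran from S1-32 at 302 ± 52.7 CPM through S1-10 (217 ± 34.2), S2-78 (212 ± 105), Control-57 (194 ± 121), S1-78 (181 ± 87.1) and Control-10 (161 ± 83.5). S3-57 (147 ± 92.2), S1-57 (143 ± 116), S2-32 (139.9 ± 46.1), Control-78 (139 ± 47.9), S3-78 (125 ± 67.9) and Control-32 (111 ± 46.9) came next, and Direct-78 was lowest at 67.7 ± 35.4. Direct-78 thus had the lowest mean for each of the 3 chains.

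CD68 was highest in S1-32 at 31.7 ± 7.33 CPM, followed by S2-78 (29.1 ± 21.2), Control-10 (28.3 ± 14.5), S2-32 (25.1 ± 4.08), S1-10 (23.1 ± 3.14), S3-57 (23 ± 12.4) and S3-78 (22.5 ± 5.18). Control-57 (20.2 ± 17.5), S1-78 (19.4 ± 11.2) and S1-57 (17.4 ± 11.1) were intermediate. The lowest means were those of Control-78 (10.0 ± 4.16), Control-32 (5.55 ± 6.15) and Direct-78 (1.35 ± 2.34). In Control-32 the gene was at 0 in mice 73, 76 and 78, where 3 counts would have been 4.42, 2.78 and 2.80 CPM, and the other 3 mice were at 10.1, 10.4 and 12.8 CPM. In all, 48 pairs of groups were neighbours in these 4 orders, and 0 of the 48 had ranges that did not overlap, so each step between neighbours was within the spread of the mice.

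**Figure D1:**
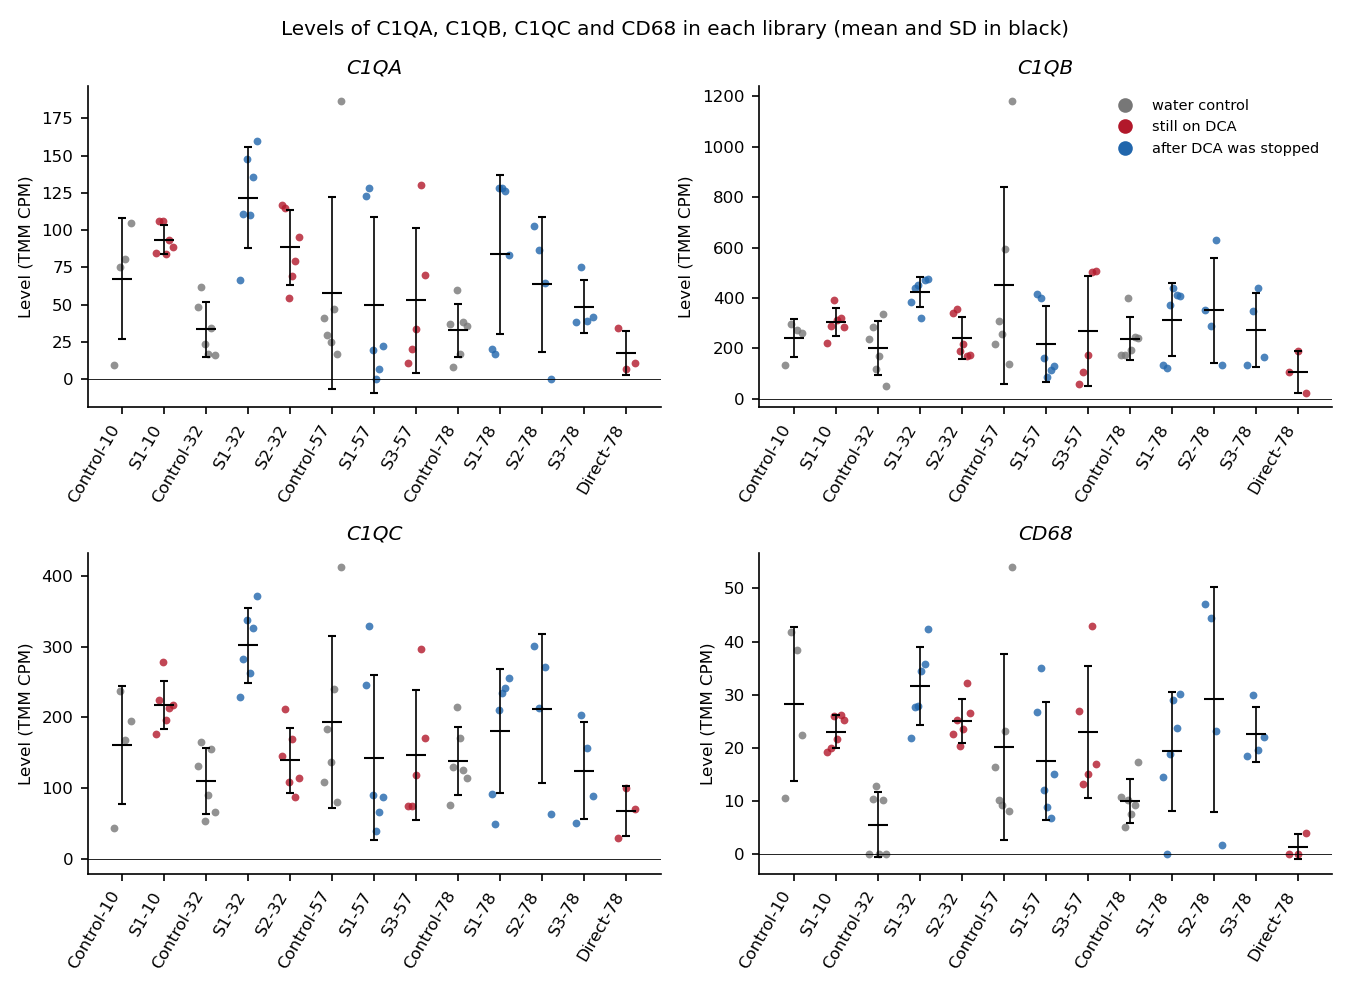
Level of each gene in CPM (vertical axis, linear) for each of the 68 libraries, by group in order of collection week, with controls in grey, mice still on DCA in red and mice after DCA in blue, and the group mean ± SD in black. The S1-32 points of C1QA, C1QC and CD68 lie above all Control-32 points, and mouse 84 of Control-57 stands at 1182 CPM for C1QB.

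At week 32, 22 weeks after DCA was replaced by water, C1QA, C1QC and CD68 RNA were higher in the S1 mice analysed than in controls, and C1QB was not called. C1QA had a lowest, median and highest level of 66.3, 123 and 160.2 CPM in S1-32 against 15.9, 28.9 and 61.8 CPM in Control-32. C1QC had 229, 305 and 371 CPM against 53.4, 111 and 165 CPM. CD68 had 21.8, 31.2 and 42.4 CPM against 0, 5.04 and 12.8 CPM. For these 3 genes all 6 S1-32 mice were above all 6 controls. The 2 groups did not overlap for 10% of all genes, and for 6.03% of them every S1-32 mouse was higher. C1QB had 319.7, 444 and 475 CPM against 52.3, 203 and 338 CPM. The ranges of C1QB overlapped, with 5 of 6 S1-32 mice above every control.

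A gene was called where edgeR's quasi-likelihood test gave an adjusted p (Benjamini-Hochberg, over 2205 genes) of 0.05 or less with a fold above 1.5. In S1-32 against Control-32, 3 of the 4 genes were called, beside 29.1% of all genes tested. CD68 rose 5.27-fold (log2 fold change 2.40, SE 0.65, adjusted p = 0.00583), C1QC 2.73-fold (1.45, SE 0.43, adjusted p = 0.0109) and C1QA 3.63-fold (1.86, SE 0.69, adjusted p = 0.0372). C1QB had a log2 fold change of 1.08 (SE 0.47, adjusted p = 0.0688) and was not called. The median over the 4 genes was 1.65, against 0.05 over all genes. C1QA was no longer called when mouse 21, 23 or 24 of S1-32 or mouse 75, 76 or 78 of Control-32 was left out (adjusted p 0.0542 to 0.088), and C1QB was called without control mouse 74 (adjusted p = 0.0458) or 77 (adjusted p = 0.0419).

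Sequencing depth differed along with the groups. The S1-32 libraries held 2979117 to 3914572 counts and the Control-32 libraries 721372 to 2731045, so depth and treatment cannot be told apart in this comparison. With the log2 total count as a covariate, the log2 fold changes were 0.78 for C1QA, 0.90 for C1QC and 1.78 for CD68, and 0 of the 4 genes was called (adjusted p 0.153 to 0.706). The 10 libraries that the authors left out are all of other groups than S1-32 and Control-32. With them in the shared model, the log2 fold changes of these genes were 1.84, 1.42 and 2.38, and 0 was called (adjusted p 0.0566 to 0.201). Over all alternatives the adjusted p ran from 0.00293 to 0.675 for C1QA, 0.032 to 0.706 for C1QB, 0.00337 to 0.329 for C1QC and 0.000582 to 0.153 for CD68.

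S2-32 mice, still on DCA at the same week, are compared with the same 6 controls. CD68 had a lowest, median and highest level of 20.4, 24.4 and 32.1 CPM, and every S2-32 mouse was above every Control-32 mouse, as for 1.41% of all genes. C1QA had 54.7, 87.2 and 117 CPM, with 5 of 6 mice above all controls. C1QB (169.7 to 355 CPM) and C1QC (87.2 to 212 CPM) lay largely within the range of the controls. In S2-32, 1 of the 4 genes was called, beside 10.7% of all genes. CD68 rose 4.17-fold (log2 2.06, SE 0.65, adjusted p = 0.03), and here the depth ranges overlapped.

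The CD68 call in S2-32 was lost (adjusted p 0.0503 to 0.0948) without mouse 40 or 42 of S2-32 or mouse 73, 76 or 78 of Control-32, the last 3 being the controls at 0. It was also lost with only the 2 groups in the model (adjusted p = 0.178) and with all deposited libraries (adjusted p = 0.188), in a range of 0.00719 to 0.188 over all alternatives. The libraries added in the fit of all deposited libraries were of groups other than S2-32 and Control-32. The log2 fold changes of the chains were 1.40 for C1QA (SE 0.68, adjusted p = 0.167), 0.27 for C1QB (SE 0.46, adjusted p = 0.721) and 0.34 for C1QC (SE 0.43, adjusted p = 0.612).

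S2-32 was also set against S1-32, to compare ongoing with stopped exposure at week 32. C1QC was lower in all 6 S2-32 mice (87.2 to 212 CPM) than in any S1-32 mouse (229 to 371 CPM), where 11.6% of all genes did not overlap, with a log2 fold change of -1.11 (SE 0.43, adjusted p = 0.145). The other 3 genes overlapped between these groups, with log2 fold changes of -0.46 for C1QA, -0.81 for C1QB and -0.34 for CD68. Depth overlapped only narrowly, at 1484484 to 3049702 counts in S2-32 and 2979117 to 3914572 counts in S1-32. With the log2 total count as a covariate the log2 fold change was 0.15 for C1QA and 0.28 for CD68. Those of C1QB and C1QC stayed negative. By edgeR and by DESeq2, 0 of the 4 genes was called, beside 3.54% of all genes, and 1 of them (C1QC) had an unadjusted p under 0.05. With only these 2 groups in the model, C1QB (adjusted p = 0.0164) and C1QC (adjusted p = 0.00376) were called, where all alternatives ranged up to 0.822 and 0.608.

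**Figure D2:**
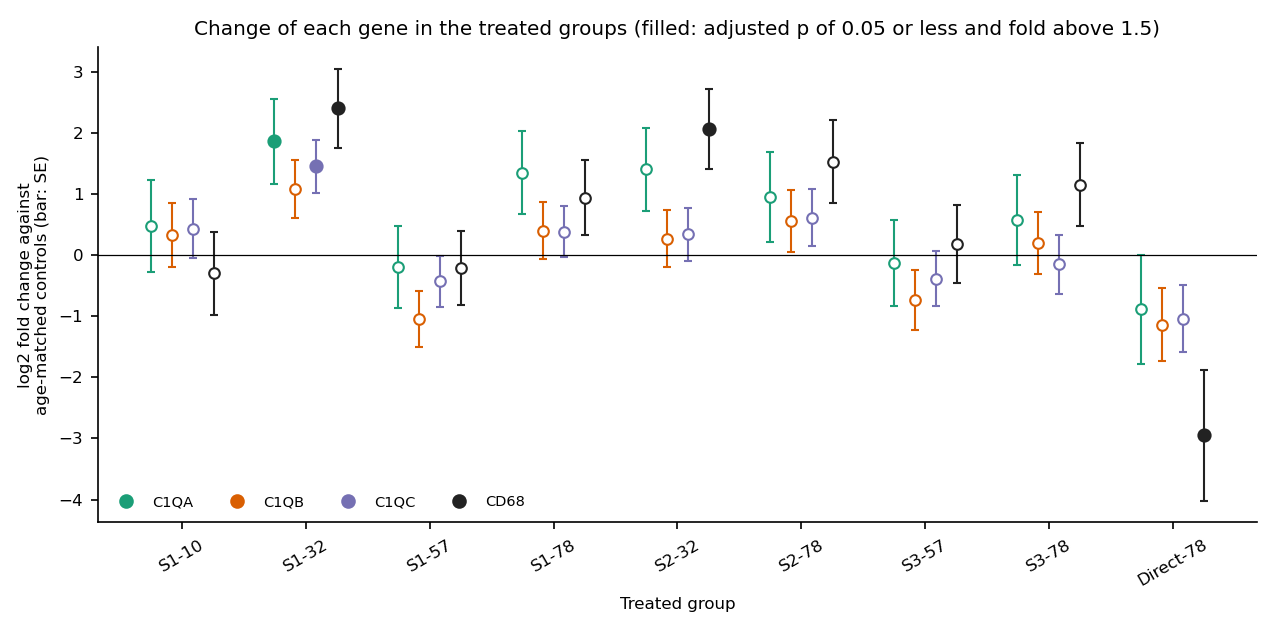
Log2 fold change of each gene against the controls of the same week (vertical axis), with the SE as bar, in the 9 treated groups, where filled symbols passed the test. In S1-32 the filled points are C1QA at 1.86, C1QC at 1.45 and CD68 at 2.40, in S2-32 CD68 at 2.06 and in Direct-78 CD68 at -2.95.

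In the remaining stop groups and the earlier exposure, the 4 genes were within the spread of their controls or did not pass the test. After 10 weeks of DCA (S1-10), 0 of 4 was called by edgeR or DESeq2, beside 5.49% of all genes, and 0 of 4 had an unadjusted p under 0.05. The log2 fold changes were 0.48 for C1QA, 0.33 for C1QB, 0.43 for C1QC and -0.30 for CD68. The 6 S1-10 mice were close together for all 4 genes, for example between 19.3 and 26.2 CPM for CD68, inside the control range of 10.6 to 41.7 CPM.

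The week 57 groups S1-57 and S3-57 share their controls, among which mouse 84 stood far above the others. It also had the highest sum of pan-leukocyte genes of Control-57 (3426 CPM, the others 544 to 1625 CPM) and of neutrophil markers (3697 CPM, the others 33.4 to 461 CPM) and the lowest of hepatocyte markers (42614 CPM, the others 46057 to 81199 CPM). In S1-57, 0 of 4 genes was called by edgeR or DESeq2, beside 1.59% of all genes, and 1 had an unadjusted p under 0.05. That gene was C1QB, with a lowest, median and highest level of 85.5, 145 and 415 CPM against 139.5, 283 and 1182 CPM in Control-57. The groups overlapped, with 3 of 6 S1-57 mice below every control (log2 fold change -1.05, SE 0.46, adjusted p = 0.287). In S3-57, 0 of 4 was called by edgeR or DESeq2, beside 6.39% of all genes, and 0 had an unadjusted p under 0.05. Depth did not overlap between S3-57 (1123317 to 2030701 counts) and Control-57 (2223516 to 4153377 counts), so depth and treatment cannot be told apart in this comparison. With the log2 total count as a covariate, the log2 fold change of C1QA went from -0.13 to 0.98. Mice 53 and 54 of S3-57 had 501 and 505 CPM of C1QB, while mice 49, 50 and 51 had 60.1, 106 and 175 CPM. Between S3-57 and S1-57, ongoing against stopped exposure, 0 of 4 genes and 0% of all genes were called by edgeR. DESeq2 also called 0 of 4, and 0 of 4 had an unadjusted p under 0.05. The log2 fold changes lay between 0.04 for C1QC and 0.39 for CD68.

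At week 78 the stop groups and Direct-78 share 6 controls. In S1-78, 0 of 4 genes was called by edgeR or DESeq2, beside 1.81% of all genes, and 0 had an unadjusted p under 0.05. C1QA had a lowest, median and highest level of 16.8, 105 and 128 CPM in S1-78 against 8.33, 36.1 and 60.0 CPM in Control-78, with 4 of 6 mice above all controls and 2 among them (log2 fold change 1.35, SE 0.68, adjusted p = 0.375). In S2-78, 0 of 4 was called by edgeR or DESeq2, beside 1.63% of all genes, and 1 (CD68) had an unadjusted p under 0.05. CD68 stood at 47.1, 44.5, 23.2 and 1.72 CPM in mice 43, 44, 45 and 47, against 5 to 17.4 CPM in Control-78. Of these mice, 3 were above and 1 was below all controls (log2 fold change 1.53, SE 0.68, adjusted p = 0.249). The mouse below, mouse 47, stood apart in pancreatic acinar markers, with a sum of 15452 CPM against 176 to 371 CPM in the other 3 mice. The other libraries over 1000 CPM of these markers were mouse 36 of S1-78 (26729 CPM), mouse 17 of S1-10 (5854 CPM) and mouse 19 of S1-32 (3386 CPM). Without these 4 libraries the log2 fold change of CD68 was 1.91 (adjusted p = 0.14).

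In S3-78, 0 of 4 genes was called by edgeR or DESeq2, beside 13.3% of all genes, and 0 had an unadjusted p under 0.05. CD68 stood at 18.4, 29.9, 19.6 and 22.1 CPM in mice 55, 56, 59 and 60. All 4 were above every Control-78 mouse, as for 5.08% of all genes, by a narrow gap at the lowest (log2 fold change 1.15, SE 0.68, adjusted p = 0.255). Mice 57 and 58 of S3-78, left out by the authors, had no CD68 counts, where 3 counts would have been 10.5 and 6.99 CPM. The depth of S3-78 (1154431 to 1936370 counts) was below that of every Control-78 library (2098777 to 4285848), so depth and treatment cannot be told apart here.

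After 78 weeks of DCA without a stop, CD68 RNA was at or near 0 in the 3 libraries that the authors kept, and at 8.5 to 24.6 CPM in the 3 they left out. In those kept, the level was 0 in mice 64 and 65 and 4.05 CPM in mouse 66, which had 3 counts. In mice 64 and 65, 3 counts would have been 2.96 and 4.04 CPM. All 3 mice were below the lowest Control-78 mouse at 5 CPM, where 18.9% of all genes did not overlap. Over the groups, CD68 had 3 counts of 1912186 against 169 of 20264797, a ratio of 0.188 by these totals. By the TMM-scaled totals behind the CPM values it was 0.113, with a 95% counting interval of 0.023 to 0.335. Such intervals and limits cover counting error alone, since reads amplified by PCR without molecular tags are not independent molecules.

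In Direct-78 against Control-78, 1 of the 4 genes was called, beside 24.4% of all genes. CD68 fell, with a fitted log2 fold change of -2.95 (SE 1.07, adjusted p = 0.038). C1QA stood at 34.5, 6.74 and 10.8 CPM in mice 64, 65 and 66, C1QB at 108, 191 and 24.3 CPM, and C1QC at 30.6, 101 and 71.5 CPM. For each chain these 3 mice were below the control median, while the ranges overlapped. In mice 61, 62 and 63, left out by the authors, C1QA was at 31.8, 53.3 and 51.1 CPM. C1QB was at 65, 83.5 and 107 CPM in them, and C1QC at 13, 27.8 and 44.7 CPM. With all deposited libraries the mean C1QA level was 31.9 CPM in Direct-78 and 33.3 CPM in Control-78. The log2 fold changes were -0.89 for C1QA (SE 0.89, adjusted p = 0.463), -1.14 for C1QB (SE 0.60, adjusted p = 0.149) and -1.04 for C1QC (SE 0.55, adjusted p = 0.156), and with the log2 total count as a covariate they were 1.57, 0.42 and 0.32. The median over the 4 genes was -1.09, against -0.33 over all genes.

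The Direct-78 libraries had the lowest totals, at 541245 to 699825 counts, so depth and treatment cannot be told apart here either. The authors left out 3 further Direct-78 libraries, of mice 61, 62 and 63. CD68 was counted in each of them at 24.6, 8.5 and 16 CPM, and the first was above the highest Control-78 library (17.6 CPM) when all 78 libraries were scaled together. With all deposited libraries the log2 fold change of CD68 was -0.22 (adjusted p = 0.852), and with the log2 total count as a covariate it was -0.74 (adjusted p = 0.849). The call was also lost without mouse 64 or 65 of Direct-78 or mouse 85 or 90 of Control-78 (adjusted p 0.0619 to 0.204), with RLE factors (adjusted p = 0.08) and with only the 2 groups in the model (adjusted p = 0.102), and over all alternatives its adjusted p ran from 0.0163 to 0.852. Without mouse 66 the group had no CD68 counts.

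**Figure D3:**
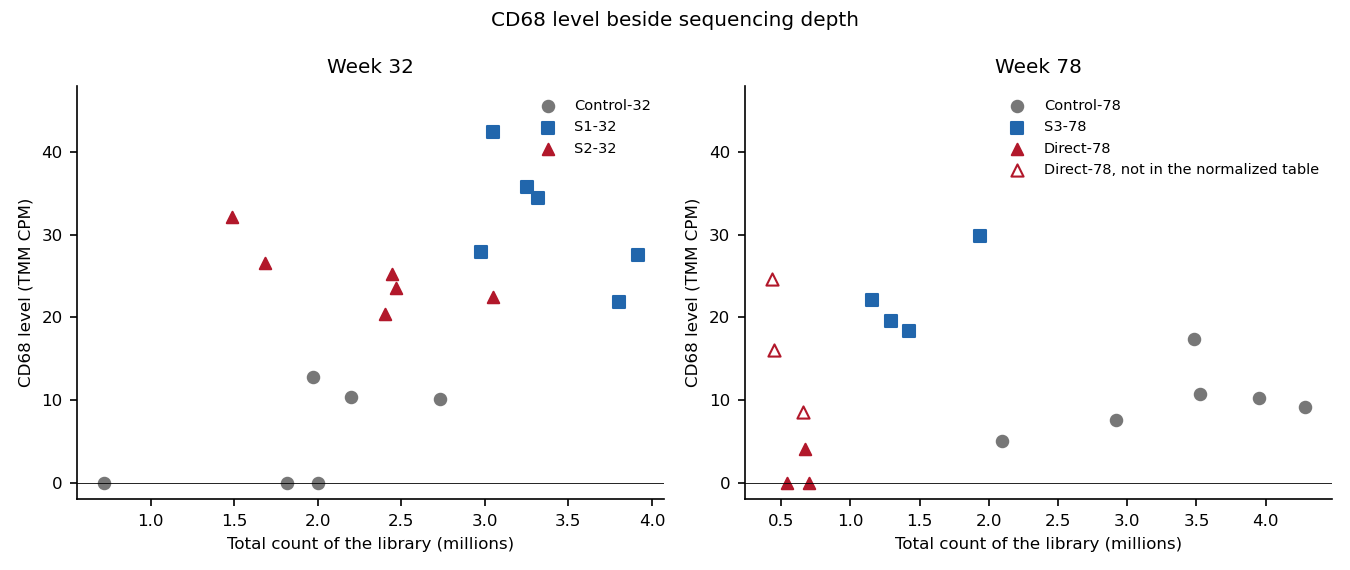
CD68 level in CPM (vertical axis) against the total count of the library (horizontal axis, in units of 1000000 counts) at week 32, left, and week 78, right, with 1 symbol per mouse. The S1-32 squares and the Control-32 circles do not overlap on either axis, and the open triangles are the 3 Direct-78 mice outside the normalized table, at 24.6, 8.5 and 16 CPM.

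Direct-78 was also compared with S3-78, which had stopped 21 weeks earlier. CD68 was at 0, 0 and 4.05 CPM in Direct-78 and at 18.4 to 29.9 CPM in S3-78, with no overlap, as for 10.5% of all genes. Of the 4 genes, 1 was called, beside 5.03% of all genes. CD68 had a log2 fold change of -4.10 (SE 1.12, adjusted p = 0.021), and by counts over TMM-scaled totals the ratio was 0.0521 (95% counting interval 0.0106 to 0.155). C1QA was lower too in all 3 Direct-78 mice than in any S3-78 mouse (log2 fold change -1.46, SE 0.95, adjusted p = 0.392). The depth ranges did not overlap. The CD68 call was lost without mouse 64 (adjusted p = 0.119) or 65 (adjusted p = 0.0681) of Direct-78. With all deposited libraries the log2 fold change was -0.87 (adjusted p = 0.709), and it was -3.04 with the depth covariate (adjusted p = 0.158) and -3.94 with only the 2 groups in the model (adjusted p = 0.484), within a range of 0.00737 to 0.709 over all alternatives.

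Among controls, the question was how the 4 genes varied with age, and CD68 was the gene that came closest to a call. The 3 comparisons share the Control-10 mice, whose CD68 levels were 10.6, 41.7, 38.4 and 22.4 CPM in mice 68, 69, 71 and 72. Mice 67 and 70, left out by the authors, had no CD68 counts, where 3 counts would have been 1.76 and 6.57 CPM. Mouse 68 stood apart in hepatocyte markers, with a sum of 18177 CPM against 72192 to 82727 CPM in the other 3 mice. In Control-32, 5 of 6 mice were below all of them, with a log2 fold change of -2.24 for CD68 (SE 0.69, adjusted p = 0.0689). EdgeR called 0 of 4 genes there, beside 1.59% of all genes, with 1 at an unadjusted p under 0.05, and DESeq2 called 1, CD68. CD68 was also called without mouse 68 (adjusted p = 0.0462) or 74 (adjusted p = 0.0271), and with the depth covariate, in a range of 0.02 to 0.601 over all alternatives. Control-57 had 0 of 4 called by edgeR or DESeq2, beside 3.45% of all genes, and 0 at an unadjusted p under 0.05. Control-78 had 0 of 4 called by edgeR or DESeq2, beside 3.95% of all genes, and 1, CD68, at an unadjusted p under 0.05 (log2 fold change -1.48, SE 0.67, adjusted p = 0.22).

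Changes were then compared with each other, as the difference between log2 fold changes, each against its own controls, with a call on the adjusted p alone. S3-78 and S1-32 had been on water for 21 and 22 weeks after 57 and 10 weeks of DCA. The change in S3-78 minus the change in S1-32 was called for 1 of 4 genes, beside 34.2% of all genes. That gene was C1QC, at -1.59 (SE 0.65, adjusted p = 0.0494), and the differences for C1QA (-1.29), C1QB (-0.88) and CD68 (-1.25) were not called. The call lay at the threshold. It was lost when any of 17 of the 22 libraries was left out, with the adjusted p at 0.0316 to 0.142 over the 22 fits, with DESeq2 (adjusted p = 0.0686), RLE factors (0.0867), all deposited libraries (0.0716) and the depth covariate (0.934), where all alternatives ran from 0.0175 to 0.934. The change in Direct-78 minus the change in S1-10 was called for 0 of 4 genes by edgeR or DESeq2, beside 33.8% of all genes, and 2 (C1QC and CD68) had an unadjusted p under 0.05. The differences were -1.37 for C1QA, -1.48 for C1QB, -1.47 for C1QC and -2.66 for CD68, the last being called (adjusted p = 0.0188) without mouse 66, the Direct-78 mouse with CD68 counts.

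Mouse by mouse, the 4 genes went up and down together. Over the 68 libraries, with log2 CPM, Pearson's r was 0.849 (Spearman's rho 0.913) between C1QB and C1QC, 0.759 (0.83) between C1QA and C1QC and 0.702 (0.778) between C1QA and C1QB. CD68 had an r of 0.623 (rho 0.721) with C1QC, 0.611 (0.809) with C1QA and 0.543 (0.618) with C1QB. Each of these 6 pairs had a permutation p of 1e-05 for r and for rho, 2-sided, the smallest that 100000 permutations can give, and 1e-05 after adjustment over the 6. Leaving out the 2 libraries farthest from the median of the first gene of each pair gave an r between 0.489 (C1QB and CD68) and 0.892 (C1QB and C1QC).

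The genes went together within groups too. After subtraction of each group's mean, with permutation inside groups, r was 0.812 (rho 0.859) for C1QB and C1QC, 0.76 (0.7) for C1QA and C1QC and 0.7 (0.767) for C1QA and C1QB, each with a permutation p of 1e-05 for r, the smallest possible. It was 0.616 (rho 0.616, permutation p = 1e-05) for C1QA and CD68, 0.585 (rho 0.55, permutation p = 6e-05) for C1QC and CD68 and 0.426 (rho 0.425, permutation p = 0.00402) for C1QB and CD68. The highest adjusted p over the 6 pairs was 0.00402.

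**Figure D4:**
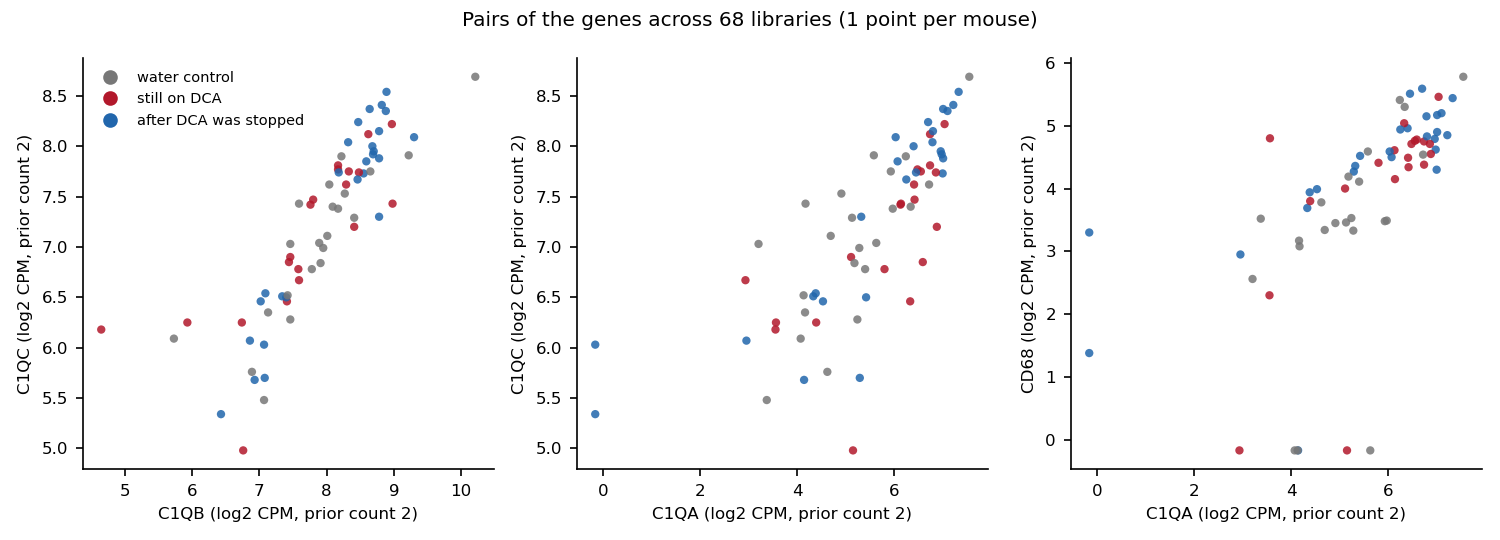
Log2 CPM of C1QC against C1QB, C1QC against C1QA, and CD68 against C1QA (axes in log2 CPM with a prior count of 2), with 1 point per library and colours as for the levels. The points rise together in each panel (r of 0.849, 0.759 and 0.611), and the 6 libraries at 0 for CD68 form the row at the bottom of the last panel.

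Among the other 2201 genes, those whose levels were most like the mean of the C1q chains over the 68 libraries were CTSS (rho 0.915), CD97 (0.794), MSN (0.779), ZEB2 (0.758) and LY86 (0.756), where the median over all genes was 0.084. CTSS encodes cathepsin S, a lysosomal protease of antigen-presenting cells, and LY86 encodes MD-1, a partner of a Toll-like receptor homologue on myeloid and B cells. The genes most like CD68 were MSN (rho 0.785), TMEM204 (0.763), CTSS (0.761), CD97 (0.741) and ZEB2 (0.73), against a median of 0.092. CD97 encodes an adhesion receptor of leukocytes, MSN the membrane linker moesin and ZEB2 a zinc-finger repressor, and these 3 and CTSS stand in both lists. These values describe likeness over libraries that share depth and group, and carry no test.

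The list of macrophage and Kupffer cell markers held 18 tested genes, 14 besides the 4 described. In S1-32, 5 of the 18 rose and 2 fell, with a median log2 fold change of 0.71 against 0.05 over all genes, of which 29.1% were called. Without the 4 genes, 2 of 14 rose and 2 fell, with a median of 0.24. The genes that rose with C1QA, C1QC and CD68 were CTSS (log2 1.92, SE 0.67, adjusted p = 0.0279) and FCGR3, a low-affinity antibody receptor (2.11, SE 0.62, adjusted p = 0.0101). TYROBP, a signalling adaptor of myeloid receptors, fell (-2.39, SE 0.64, adjusted p = 0.00558), as did FCER1G, the related adaptor of antibody receptors (-2.06, SE 0.66, adjusted p = 0.0163). TYROBP was the most abundant gene of the list (mean 974 CPM over the libraries). It averaged 386 CPM in S1-32 and 2029 CPM in Control-32. The summed level of the list without the 4 genes accordingly ran from 1974 through a median of 2438 to 2672 CPM in S1-32. In Control-32 it ran from 1354 through 3394 to 5292 CPM, and the ranges overlap. No marker of the list was at 0 in all mice of either group. The part of macrophage number in the rise of C1QA, C1QC and CD68 was not tested.

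In S2-32 against the same controls, 1 of 18 macrophage genes rose (CD68) and 1 fell, again TYROBP (-2.58, SE 0.65, adjusted p = 0.00892), beside 10.7% of all genes called. The list's median was -0.10 against 0.05 over all genes. Without the 4 genes, 0 of 14 rose and 1 fell, with a median of -0.26, and their summed level lay between 923 and 1569 CPM. DESeq2 called 4 of the 18, namely CD68, MMP12, MPEG1 and TYROBP. In Direct-78, 2 of 18 fell, CD68 and the monocyte chemokine receptor CCR2, which had no counts in the 3 mice and was at least 6.15-fold lower than in Control-78, taking 3 counts over the group as the limit, beside 24.4% of all genes called. The list's median there was -0.97 against -0.33, with CCR2 at its fitted value or at that limit. Without the 4 genes, 1 of 14 fell, and the median was -0.4, close to that of all genes. The sums without the 4 genes were 2245, 1322 and 2458 CPM in mice 64, 65 and 66 against 1191 to 5092 CPM in Control-78. These sums lay within the range of the controls, and CD68 was below its own control range. TYROBP, the most abundant gene of the list, averaged 1054 CPM of a mean sum of 2008 CPM in Direct-78. In Control-78 it averaged 1267 CPM of a mean sum of 2872 CPM. The part of macrophage number in the fall of CD68 was not tested.

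Among controls, other macrophage genes rose at week 57, where the 4 genes did not pass the test. In Control-57 against Control-10, 4 of 18 rose, namely TYROBP (log2 2.79), the NADPH oxidase subunit CYBB (3.18), lysozyme LYZ2 (2.26) and the pore-forming MPEG1 (2.18), with adjusted p from 0.0179 to 0.0436, beside 3.45% of all genes called. Control-57 (2223516 to 4153377 counts) and Control-10 (1233543 to 2206672 counts) did not overlap in depth. EdgeR called 0 of 18 in Control-32 and 0 of 18 in Control-78 against Control-10, with 2 at an unadjusted p under 0.05 in each and medians of -0.21 and -0.38. DESeq2 called 2 (CD68, lower, and TYROBP, higher) in Control-32 and 0 in Control-78. In S1-57 against Control-57, 3 of 18 fell, TYROBP (-3.23), CYBB (-2.86) and LYZ2 (-1.93), beside 1.59% of all genes called, and in S3-57 1 of 18 fell, TYROBP (-2.88), beside 6.39%. In Control-57 the summed level of the list without the 4 genes ranged from 1954 to 21098 CPM. Mouse 84, highest in the C1q chains and CD68, had 8442 CPM while mouse 82 had the 21098.

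CD68 was also read beside the other lysosome genes, 16 of which were tested. In S1-32, 8 of 16 rose and 1 fell, beside 29.1% of all genes called, with a median of 0.88 against 0.05 over all genes. They included the membrane protein LAMP1 (log2 1.80, SE 0.49, adjusted p = 0.00578), the acid lipase LIPA (1.62, SE 0.54, adjusted p = 0.0221) and the acid ceramidase ASAH1 (1.63, SE 0.50, adjusted p = 0.0124). Cathepsin D (CTSD) fell (-1.45, SE 0.35, adjusted p = 0.0026). Most of these genes are used by hepatocytes as well as macrophages. The summed lysosome level was 3678 to 4431 CPM in S1-32, above every Control-32 mouse (1119 to 3305 CPM), with LAMP1 the most abundant gene.

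In S2-32, 1 of the 16 fell (CTSD), beside 10.7% of all genes called, with a median of 0.66 against 0.05. In Direct-78, 5 of 16 fell, beside 24.4% of all genes called, with a median of -1.41 against -0.33. LAMP1 (-1.86, adjusted p = 0.0294), the mannosidase MAN2B1 (-2.03, adjusted p = 0.00181), the proton pump subunit ATP6AP1 (-1.88, adjusted p = 0.00644) and the glucuronidase GUSB (-2.07, adjusted p = 0.0169) fell with CD68. The sums were 738, 2486 and 779 CPM in mice 64, 65 and 66, and 2267 to 4047 CPM in the controls, so 2 of 3 mice were below all controls.

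The complement genes that act with C1q are made mainly by hepatocytes. Of 11 tested genes for initiation and its regulators, 4 rose and 1 fell in S1-32, beside 29.1% of all genes called, with a median of 1.27 against 0.05 over all genes. C1S1, the protease that C1q activates through C1r, rose (log2 1.28, SE 0.36, adjusted p = 0.00703), as did SERPING1, the inhibitor of both proteases (2.19, SE 0.39, adjusted p = 0.000155), and C3 (1.39, SE 0.41, adjusted p = 0.0103). CFD, factor D of the alternative pathway, fell (-4.83, SE 1.41, adjusted p = 0.00951) to a mean of 0.328 CPM. In S1-10, C3 (1.55, adjusted p = 0.041) and SERPING1 (1.56, adjusted p = 0.0265) rose, 2 of 11 beside 5.49% of all genes. In S2-32, 1 of 11 fell, VTN (-1.22, SE 0.37, adjusted p = 0.023), beside 10.7% of all genes called. In S2-32 against S1-32, 3 of 11 fell, beside 3.54% of all genes called, among them C1S1 (-1.56, adjusted p = 0.00781) and SERPING1 (-1.38, adjusted p = 0.0286).

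In Direct-78, 5 of the 11 initiation genes fell and 1, the lectin MBL2, rose (1.35, adjusted p = 0.0149), beside 24.4% of all genes called, with a median of -1.29 against -0.33. C1S1 (-2.19, adjusted p = 0.00136), C3 (-2.02, adjusted p = 0.00688), SERPING1 (-1.75, adjusted p = 0.00949) and CLU (-1.29, adjusted p = 0.00795) were among those that fell. The 4 terminal components, which form the membrane attack complex, all fell in Direct-78, with HC (complement C5) at -2.77, C8A at -3.75, C8B at -3.04 and C9 at -3.23 (adjusted p 4.55e-06 to 0.00862). Of the 4, 2 also fell in S2-32 (beside 10.7% of all genes called), 2 in S3-57 (beside 6.39%) and 3 in S3-78 (beside 13.3%). In S1-10, 2 of the 4 rose, beside 5.49% of all genes called. In S1-32, beside 29.1% of all genes called, 2 of these 4 rose, HC (2.49, adjusted p = 0.00022) and C8A (0.97, adjusted p = 0.0406), with a median of -0.01 over the 4. C9, the most abundant, averaged 11126 CPM in S1-32 and 31828 CPM in Control-32, and was called lower by DESeq2 and not by edgeR. Of 3 complement receptor genes tested, 1 fell in S1-32 (CALR, calreticulin, a binding partner of C1q, -1.58, adjusted p = 0.00792), where 29.1% of all genes were called.

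Sums of markers of other liver cells are given for the same groups. The summed hepatocyte markers were 77217 to 95793 CPM in S1-32 and 41530.1 to 79595 CPM in Control-32, and 29187, 43915 and 36446 CPM in mice 64, 65 and 66 of Direct-78 against 66992 to 89617 CPM in Control-78, with 0 of the 12 at 0. TTR was the most abundant, at 24925 CPM in S1-32, 23815 CPM in Control-32, 14984 CPM in Direct-78 and 22867 CPM in Control-78. The summed pan-leukocyte genes, of which LCP1 was the most abundant, were 642 to 806 CPM in S1-32 and 347 to 714 CPM in Control-32. They were 458 to 595 CPM in Direct-78 and 564 to 723 CPM in Control-78. Of 12 hepatocyte markers, 3 rose in S1-32 and 3 fell in Direct-78, and of 18 pan-leukocyte genes 1 rose in S1-32 and 1 rose and 1 fell in Direct-78, beside 29.1% of all genes called in S1-32 and 24.4% in Direct-78. The summed lymphocyte and NK cell markers were 301, 213 and 208 CPM in mice 64, 65 and 66 of Direct-78, all above Control-78 (87.2 to 199.9 CPM), with 1 of 10 higher and 1 lower and with CD4 and LTB at 0 in the 3 mice.

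In S3-78, where CD68 was above the controls, the sums of several lists did not overlap with those of Control-78. The pan-leukocyte sums were 827 to 2288 CPM against 564 to 723 CPM, the lymphocyte and NK cell sums, with GIMAP4 the most abundant gene, 267 to 1082 CPM against 87.2 to 199.9 CPM, and the hepatocyte sums 43131 to 64662 CPM against 66992 to 89617 CPM. Of 18 pan-leukocyte genes 6 rose and of 10 lymphocyte genes 3 rose, beside 13.3% of all genes called. Of 12 hepatocyte markers, edgeR called 0, with 3 at an unadjusted p under 0.05, and DESeq2 called 2 (FGB and TTR). The part of any of these differences in the C1q and CD68 values was not tested.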

How the data were processed

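Counts of ligated TempO-Seq probes (Mouse S1500+ panel) per gene were deposited by the authors for 78 libraries as raw counts, with no normalization, together with a filtered table and a normalized table of 68 libraries. In the assay, reads of very abundant transcripts were attenuated by design. The submitters' processing notes and the study's methods name Partek 10.0.22.0524, Bowtie, mm10 and DESeq2. The authors' deposited normalized signal values, equal to (count + 1) divided by a factor per library, were used to identify the 68 libraries and 2205 genes that the authors kept. The 10 libraries left out failed their correlation filter.

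Raw counts of the 68 libraries were tested with edgeR 4.0.16 (R 4.3.3), with TMM scaling and a quasi-likelihood fit of the 13 groups in a single model (common biological coefficient of variation 0.635), and p-values were adjusted by Benjamini-Hochberg over 2205 genes. DESeq2 1.42.0 was an alternative, as were median-ratio (RLE) factors, all panel genes with a count, all deposited libraries, a log2 total count covariate, a model of the compared groups alone, adjusted p alone, and each library left out in turn. A minimum of 1000000 counts per library and leaving out libraries with over 1000 CPM of pancreatic acinar markers were added after seeing the data. Correlations used log2 CPM (prior count 2) and 100000 permutations. In simulated counts with 200 genes changed in S1-32, the test called 175 of them against Control-32, all in the right direction, and 4 unchanged genes. These are totals over the genes drawn. How often a gene with the level and fold of C1QA, C1QC or CD68 is called was not tested. Of 195 pairs of libraries within groups, 0 agreed within sampling noise.

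The 4 genes and the gene lists were chosen with earlier results of these data known. Besides the 4 genes, the text names called genes of the macrophage, lysosome and complement lists, the most abundant gene of a list, and the 5 genes with the highest rho to the C1q mean and to CD68.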

Additional observations from a re-analysis of the deposited data

Results flagged for a closer look

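In 4 of 48 gene and group pairs with 4 to 10 mice, the highest library stood apart from the rest of its group by Dixon's gap test. In normally distributed values chance alone does this in about 1 in 20 groups. The test was run on CPM without logs, and the 48 pairs share mice. The 4 of 48 can therefore not be set against that rate. Mouse 84 of Control-57 had 187 CPM of C1QA and 54 CPM of CD68, each the highest level of its gene in the 68 libraries. Mouse 56 of S3-78 had 75.3 CPM of C1QA, where the other 3 mice had 38.2, 39.2 and 41.8 CPM. Mouse 87 of Control-78 had 399.9 CPM of C1QB, where the group's median was 216 CPM.

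The change of C1QC differed between S3-78 and S1-32 by -1.59 on the log2 scale (SE 0.65, edgeR adjusted p = 0.0494). Among the libraries that the authors left out, CD68 stood at 20.4 CPM in mouse 48 of S2-78, from 8 counts, and at 24.6 CPM in mouse 61 of Direct-78, from 17 counts. Both were above the highest Control-78 library at 17.6 CPM on the scale of all 78 libraries. Of the other left-out libraries, mice 62 and 63 of Direct-78 had 8.5 and 16 CPM, and CD68 was at 0 in mouse 46 of S2-78, 52 of S3-57, 57 and 58 of S3-78 and 67 and 70 of Control-10. These differences between single libraries and the controls were not tested.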

How the results depend on the processing

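Counting all panel genes with a count, calling on the other rule and leaving out the libraries with acinar RNA (mice 17, 19, 36 and 47) changed none of the numbers of genes called. Leaving out libraries under 1000000 counts (mice 28, 64, 65, 66 and 73) changed none of the 14 numbers it could give, and the Direct-78 comparisons could not be run because no library of that group was left. These last 2 alternatives were chosen after seeing the data. The 12 correlations kept their sign and their side of the threshold under the 3 alternatives run for each. The cause of the changes below was not tested.

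The number of the 4 genes called changed as follows. With RLE factors it was 0 in Direct-78 against Control-78 and 0 for the change in S3-78 against that in S1-32. With all deposited libraries it was 0 in S1-32, 0 in S2-32 and 0 in Direct-78 against their controls, and 0 in Direct-78 against S3-78. It was then 0 for the change in S3-78 against that in S1-32, and 1 (C1QB) for the change in Direct-78 against that in S1-10. These added libraries held no mouse of S1-32, S2-32 or Control-32. With the log2 total count as a covariate it was 0 in S1-32 and 0 in Direct-78 against controls, 0 in Direct-78 against S3-78, 0 for the change in S3-78 against that in S1-32, and 1 (CD68) in Control-32 against Control-10. With only the compared groups in the model it was 0 in Direct-78 against Control-78, 0 in Direct-78 against S3-78 and 2 (C1QB and C1QC) in S2-32 against S1-32. It was then 4 in S1-32 against Control-32, and in S2-32 the 1 gene called was C1QA in place of CD68. With DESeq2 it was 1 (CD68) in Control-32 against Control-10 and 0 for the change in S3-78 against that in S1-32. With a library left out in turn it ranged from 0 to 1 in S2-32 and in Direct-78 against controls, in Direct-78 against S3-78, in Control-32 against Control-10 and for both differences of changes, and from 2 to 4 in S1-32.

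The values that changed sign were log2 fold changes that had not been called. With RLE factors C1QC in S3-78 was 0.06, and with DESeq2 it was 0.06. With all deposited libraries CD68 was 0.24 in S1-10, -0.04 in S3-57 and 0.05 in Control-57 against Control-10. C1QB was then -0.25 in S3-78, 0.04 in Control-32 and 0.28 in Control-78 against Control-10. C1QA was 0.06 in Control-57 against Control-10 and -0.08 in S3-57 against S1-57, where C1QC was -0.22, and C1QC was 0.01 in Control-78 against Control-10. With the log2 total count as a covariate C1QA was 0.07 in S1-57, 0.98 in S3-57, 1.57 in Direct-78, 0.15 in S2-32 against S1-32, 1.04 for the change in Direct-78 against that in S1-10 and 1.08 for the change in S3-78 against that in S1-32. C1QB was -0.01 in S2-32, 0.42 in Direct-78, and 0.11 and 0.50 for these differences of changes. C1QC was 0.15 in S3-57, 0.49 in S3-78, 0.32 in Direct-78 and -0.08 in Control-57 against Control-10. CD68 was 0.19 in S1-57, 0.28 in S2-32 against S1-32 and 0.52 for the change in S3-78 against that in S1-32. With only the compared groups C1QC was -0.01 in S3-57 against S1-57. With at least 1000000 counts C1QA was 0.06 in S1-57 and -0.17 in S3-57 against S1-57, where C1QC was -0.16.

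With a library left out in turn, log2 fold changes that changed sign ranged in S1-57 from -0.73 to 0.67 for C1QA and from -0.53 to 0.40 for CD68, and in S3-57 from -0.79 to 0.70 for C1QA and from -0.19 to 0.75 for CD68. In these the highest value was that without mouse 84 of Control-57. In S3-78 they ranged from -0.14 to 0.50 for C1QB and from -0.38 to 0.16 for C1QC. In Control-57 against Control-10 they ranged from -1.09 to 0.08 for C1QA and from -0.12 to 0.51 for C1QC, and in Control-78 from -0.23 to 0.10 for C1QB and from -0.48 to 0.03 for C1QC. In S3-57 against S1-57 they ranged from -0.62 to 0.60 for C1QA, from -0.09 to 0.60 for C1QB, from -0.42 to 0.47 for C1QC and from -0.00 to 0.71 for CD68.

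With all deposited libraries the mean CD68 level was 8.9 CPM in Direct-78 and 15.3 CPM in S3-78. The mean C1QA level in Direct-78 was then 31.9 CPM, in place of 17.4 CPM. In the main model each Direct-78 library held 0 to 3 counts of CD68, and the 3 left out held 17, 11 and 10. In the kept mice 64 and 65, with 0, 3 counts would have been 2.96 and 4.04 CPM, and lower levels could not be told from 0 at that depth.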

Other observations

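LCN2, which neutrophils make and hepatocytes too in the acute phase, was scattered among the S1-32 mice, in which C1q and CD68 were high. Its level was 83.8 CPM in mouse 19, 608 in mouse 22, 1024 in mouse 24, 5344 in mouse 21, 7597 in mouse 23 and 12839 CPM in mouse 20. It was 4.34 to 21.4 CPM in S2-32 and 0.934 to 84.5 CPM in Control-32, so 5 of 6 S1-32 mice were above every control. The same mice differed little in C1QC (229 to 371 CPM). The other 3 neutrophil markers tested (CAMP, FPR1 and FPR2) summed to 21.1 to 45.9 CPM in S1-32, 14.8 to 28.1 CPM in S2-32 and 0 to 34.5 CPM in Control-32, ranges that overlap. Of these 3, FPR1 was called higher in S1-32 than in Control-32 (log2 fold change 2.21, SE 0.85, adjusted p = 0.0447), as was LCN2 (7.83, SE 1.59, adjusted p = 0.000453). Of all genes, 29.1% were called in this comparison, in which depth and treatment cannot be told apart.

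Stellate cell and fibroblast markers followed another order at that week. Their sums were 410.0 to 1092 CPM in S2-32, still on DCA, 198 to 500.3 CPM in S1-32 and 110.3 to 317 CPM in Control-32. Every S2-32 mouse was above every control, as for 1.41% of single genes, and the S1-32 range overlapped both. COL1A1, the most abundant gene of the list, averaged 326 CPM of a mean sum of 659 CPM in S2-32. In Control-32 it averaged 49.1 CPM of a mean sum of 204 CPM.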
